A study of Mus musculus with 14 samples.

Results

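The mitochondrial respiratory chain of the mouse embryonic head was examined through every bead array probe whose gene symbol begins with Nduf followed by a, b, c, s or v, with Cox followed by a digit from 4 to 8, with Uqcr or with Atp5, or is Sdha, Sdhb, Sdhc, Sdhd or one of ND1 to ND6. The rule used symbols and no measured value. It took 139 of 45281 probes, 135 for genes of the nuclear genome and 4 for genes of the mitochondrial genome. These probes stand for 91 genes, of which 84 had a probe above background and were tested, 81 nuclear and 3 mitochondrial. The brightest detected probe stood for each gene. All 91 symbols were found in the RefSeq gene table, 90 as protein coding genes and Ndufs5-ps as a pseudogene, and the nuclear members lay on 19 chromosomes.

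The arrays hold RNA of heads from mouse embryos at E8.5, with 5 to 7 somites, on a mixed background of the strains C57Bl/6, 129 and BALB/c. Control heads were Twist1flox/+; Mesp1+/+ (n = 4), CM-Het heads Twist1flox/+; Mesp1Cre/+ (n = 3), Het heads Twist1flox/del; Mesp1+/+ (n = 3) and CM-CKO heads Twist1flox/del; Mesp1Cre/+ (n = 4). All 4 groups therefore carry a floxed copy of Twist1, the gene of a transcription factor needed in cranial mesoderm, and the Control group is not wild type. Mesp1Cre acts in early mesoderm, so the neural tube and surface ectoderm of a CM-CKO head keep their floxed allele while every cell of a Het or CM-CKO head carries the deleted one. The labels leave it unsaid if each replicate is 1 embryo, a litter or a pool, and a p-value here reflects the scatter of these samples, which may be technical. The comparisons ask how loss of Twist1 in the mesoderm, and each allele on its own, changes the RNA of the head.

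The respiratory chain sits in the inner mitochondrial membrane. Complex I (NADH dehydrogenase) and complex II (succinate dehydrogenase) pass electrons to coenzyme Q, complex III (the cytochrome bc1 complex) passes them to cytochrome c, and complex IV (cytochrome c oxidase) gives them to oxygen, while complexes I, III and IV pump protons that drive complex V, the ATP synthase. Most subunits are encoded in the nucleus and made in the cytosol, and a few core subunits, among them ND1, ND4 and ND5 of complex I, are encoded in mitochondrial DNA and transcribed inside the organelle. Several complex IV subunits come in a ubiquitous form and a form of heart and skeletal muscle, and the embryo at this stage has a beating heart tube close to the head.

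The nuclear genes of the chain are known as targets of the transcription factors NRF1, GABPA (an ETS factor), YY1 and Sp1, so their promoters are shown before their levels. RefSeq windows on GRCm38.p6, running from 250 bases before to 50 bases after a gene's start, were given for 72 of the 87 nuclear member genes, 77 windows in all. The motif letters searched on both strands were GCATGCGC for NRF1, CCGGAAGT for ETS, AAGATGGC for YY1 and GGGCGG for Sp1. The NRF1 letters stood in 12 member windows (15.6%), against 2.71% of all 32851 windows and 4.9% of the 11826 windows of genes tested here. A longer form, with GC added in front, stood in 7 (9.09%), against 0.971% and 1.88%. The YY1 letters stood in 11 member windows (14.3%), against 2.75% of all windows and 4.15% of those of tested genes. The ETS letters stood in 5.19% of member windows, 3.89% of all windows and 7.58% of those of tested genes, and the Sp1 letters in 46.8%, 35.7% and 61.3%. A match is a description of the letters and not a site. The 6 windows printed here run 5′ to 3′ on the gene's strand, with matches in capitals (CCGCCC is GGGCGG read from the opposite strand). They are 2 with the longer NRF1 form, 2 with the YY1 letters, that of Ndufa6, which is called in a comparison and holds the NRF1 letters, and that of Cox7a1, a muscle form whose window held none of the 4 motifs.
Cox6a1 (chr5:115348909-115349208, minus strand): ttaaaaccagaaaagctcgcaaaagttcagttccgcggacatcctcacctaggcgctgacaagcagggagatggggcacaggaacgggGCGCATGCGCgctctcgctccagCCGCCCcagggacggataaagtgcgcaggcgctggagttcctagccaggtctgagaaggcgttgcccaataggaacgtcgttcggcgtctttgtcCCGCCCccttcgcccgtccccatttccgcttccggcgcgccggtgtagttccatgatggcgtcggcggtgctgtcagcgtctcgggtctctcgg
Uqcrc1 (chr9:108936398-108936697, plus strand): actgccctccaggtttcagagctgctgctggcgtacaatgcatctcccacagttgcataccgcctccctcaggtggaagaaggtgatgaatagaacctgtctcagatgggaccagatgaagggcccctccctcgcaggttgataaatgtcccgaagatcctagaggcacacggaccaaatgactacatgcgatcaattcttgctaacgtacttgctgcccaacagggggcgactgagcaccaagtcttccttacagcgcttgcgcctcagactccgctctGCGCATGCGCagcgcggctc
Ndufs7 (chr10:80249199-80249498, plus strand): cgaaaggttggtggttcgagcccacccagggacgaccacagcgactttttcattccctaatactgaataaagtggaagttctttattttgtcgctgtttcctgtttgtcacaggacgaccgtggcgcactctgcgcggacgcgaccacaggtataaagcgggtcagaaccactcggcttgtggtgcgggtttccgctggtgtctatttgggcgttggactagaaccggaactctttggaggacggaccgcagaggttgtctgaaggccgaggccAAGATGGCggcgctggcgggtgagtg
Ndufs4 (chr13:114388045-114388344, minus strand): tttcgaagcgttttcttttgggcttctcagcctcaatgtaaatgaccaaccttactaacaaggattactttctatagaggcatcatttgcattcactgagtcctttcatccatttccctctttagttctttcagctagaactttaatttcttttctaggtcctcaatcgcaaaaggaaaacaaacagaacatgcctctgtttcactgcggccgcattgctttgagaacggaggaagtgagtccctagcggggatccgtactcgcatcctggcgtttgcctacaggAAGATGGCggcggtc
Ndufa6 (chr15:82354242-82354541, minus strand): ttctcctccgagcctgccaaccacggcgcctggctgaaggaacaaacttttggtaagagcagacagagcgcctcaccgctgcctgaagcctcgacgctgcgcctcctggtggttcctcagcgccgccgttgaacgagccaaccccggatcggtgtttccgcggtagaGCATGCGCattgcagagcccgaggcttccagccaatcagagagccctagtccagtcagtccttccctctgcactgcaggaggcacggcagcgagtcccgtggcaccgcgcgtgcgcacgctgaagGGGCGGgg
Cox7a1 (chr7:30183921-30184220, plus strand): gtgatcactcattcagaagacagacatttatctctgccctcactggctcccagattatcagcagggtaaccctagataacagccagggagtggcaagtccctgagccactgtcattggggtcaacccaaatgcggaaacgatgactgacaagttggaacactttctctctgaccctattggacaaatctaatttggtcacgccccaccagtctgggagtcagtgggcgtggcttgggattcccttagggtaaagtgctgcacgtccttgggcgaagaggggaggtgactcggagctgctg
Cox6a1 and Uqcrc1 encode the ubiquitous form of subunit 6a and a core protein of complex III. The NRF1 letters in their windows are read on both strands, over stretches that overlap but are not the same bases. Ndufs7 and Ndufs4 encode a core and an accessory subunit of complex I, and their windows hold the YY1 letters close to the 3′ end.

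Before any comparison, the arrays were checked. Median intensity per array ran from 92.3 to 116 and the number of probes above background from 18242 to 19455. Twist1 had a mean log2 signal of 9.32 ± 0.20 (SD) over the Control arrays, 8.65 ± 0.14 over CM-Het, 8.60 ± 0.12 over Het and 7.75 ± 0.14 over CM-CKO, with Control wholly above and CM-CKO wholly below the other groups. Where its probe lies relative to the deleted part of the gene is not given in the sources used here. Markers of head tissue were present, with 14 of 16 neural tube and 13 of 15 head mesenchyme markers measured. The mean log2 signal of the head mesenchyme list was 6.05 to 6.14 in CM-CKO and 7.06 to 7.37 in Control. Markers of other tissue differed between arrays of a group. The mean of 14 heart muscle genes ran from 6.58 to 9.63 over all arrays, that of 9 primitive erythroid genes was 8.38 on CM-CKO 1 against 5.16 to 6.68 on the others, and that of 8 yolk sac endoderm genes was 7.94 on Control 1 against 5.33 to 6.45 on the others. No Xist probe was above background on 3 arrays, Het 3, CM-CKO 3 and CM-CKO 4. Beadchip 1 carried all CM-Het and Het arrays, beadchip 2 all Control arrays with 2 of CM-CKO (1 and 2), and beadchip 3 the remaining CM-CKO arrays (3 and 4). In RNA of whole heads, fewer cells of a type and less RNA per cell cannot be told apart.

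Respiratory chain RNA was among the brightest on the arrays. The median member gene lay at the 97.4th percentile of all probes by mean signal, against the 80.8th for all genes tested, and 55 of the 84 member genes lay in the top 5% of probes. A mean log2 signal over 10 was reached by 57 members (67.9%) and by 17.0% of all genes tested. A probe's brightness depends on its sequence as well as on the RNA, so these are positions of probes and not ratios of transcripts. The median log2 signal of the nuclear members lay between 11.05 (CM-CKO 1) and 11.28 (Control 4) on every array. Quantile normalization gives all arrays the same distribution of signal, so this narrow range is partly set by the processing. With arrays centred on their medians instead, it ran from 10.77 (CM-CKO 1) to 11.43 (CM-Het 3).

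The steadiest members lay in several complexes. Atp5b, the chain of complex V that holds its catalytic sites, had log2 signals of 13.78, 13.87, 13.72 and 13.70 in Control, 13.75, 13.80 and 13.78 in CM-Het, 13.78, 13.73 and 13.82 in Het and 13.73, 13.75, 13.72 and 13.84 in CM-CKO. The 4 groups overlapped fully, and the SD over all 14 arrays was 0.050. Ndufa8 (0.061) and the acyl carrier protein Ndufab1 (0.074) of complex I and Uqcrc2 (0.071) and Uqcr10 (0.073) of complex III followed. For the 57 bright members the median SD over the arrays was 0.1001, close to the 0.1006 of the 1882 other genes as bright. The 27 dimmer members had a median SD of 0.214, against 0.187 for 9428 other dimmer genes. The widest spreads were those of ND5 (0.62), the muscle form Cox6a2 (0.56), Ndufb4 (0.40), the muscle form Cox7a1 (0.36) and Cox7b (0.32).

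**Figure D1:**
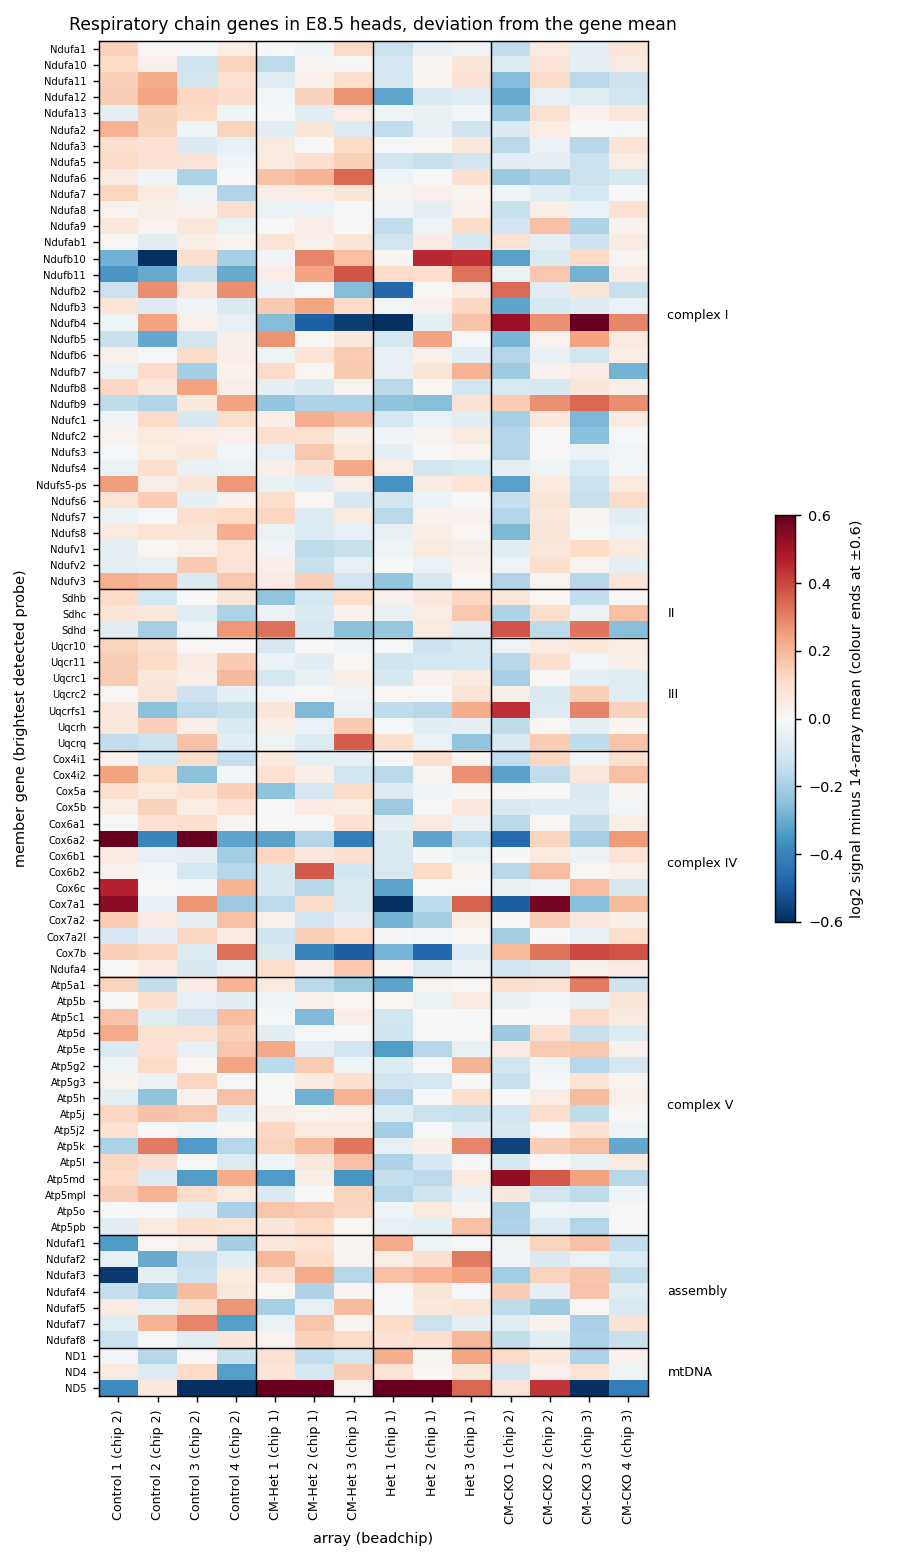
Log2 signal of the 84 tested member genes (rows, by complex) on the 14 arrays (columns, by group, with the beadchip), as the deviation from each gene's mean over the arrays; red is above and blue below that mean. Most rows are pale on every array, CM-CKO 1 has many blue cells in complex I, and ND5, Cox6a2, Cox7a1, Cox7b and Ndufb4 hold the deepest colours.

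Loss of mesodermal Twist1 was first examined by setting CM-CKO against Control. No member gene was called by limma at an adjusted p under 0.05, where 80 of the 11394 genes tested were (0.702%). At an unadjusted p under 0.05, 21 of the 84 members (25.0%) passed, against 11.2% of all genes. Of the 81 nuclear members 57 lay lower in CM-CKO and 24 higher, with a median log2 difference of -0.05, while the median over all genes was 0.00 and 50.6% lay higher. The 95% interval of the difference lay within ±0.5 log2 for 77 of the 84 members (91.7%), against 79.8% of all genes, and within ±0.3 for 52 members. The median SE was 0.072 for the members, which are brighter, and 0.119 for all genes. The shares at an unadjusted p and of narrow intervals are therefore not set side by side at equal precision, here or in the comparisons below. The members ran from -0.50 (Cox6a2) to 0.38 (Ndufb4). The per-array median deviation of the nuclear members was 0.02 to 0.05 on the 4 Control arrays and -0.11, 0.02, -0.04 and 0.03 on CM-CKO 1 to 4, so that CM-CKO 1, the array with the highest erythroid marker level, lay lowest. Without it the median log2 difference of the nuclear members was -0.02. The part of that array's makeup in the lower values was not tested. With median-centred arrays in place of quantile normalization, the deviations of the nuclear members ran from -0.26 to 0.17 on Control and from -0.38 to 0.15 on CM-CKO. Those of all genes tested then ran from -0.27 to 0.19 and from -0.21 to 0.20.

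Complex I held 28 of the 57 lower members. These 28 include the pseudogene Ndufs5-ps, and the other 6 of the 34 nuclear members of complex I lay higher. The 34 had a median of -0.07 and 11 at an unadjusted p under 0.05. Ndufa12, an accessory subunit, had the smallest p of all members. Its log2 signals were 10.99, 11.07, 10.97 and 10.95 in Control and 10.53, 10.79, 10.76 and 10.72 in CM-CKO, so the groups did not overlap, and the difference was -0.29 (95% interval -0.45 to -0.13, limma adjusted p = 0.108). Its Het values of 10.53, 10.75 and 10.77 were as low as those of CM-CKO, and its CM-Het values of 10.82, 10.98 and 11.11 were near those of Control. The brightest complex I member, Ndufa13, differed by -0.05 (-0.19 to 0.09). Ndufb4, Ndufb9, Ndufb11, Ndufb10 and Ndufb5 lay higher in CM-CKO, by 0.38, 0.27, 0.24, 0.20 and 0.14, together with Ndufv1 at 0.03. The second probes of Ndufb10 and Ndufb11 had the opposite sign, at -0.83 and -0.09, so the direction of these 2 genes is uncertain.

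In complex II the membrane anchors Sdhc and Sdhd and the iron-sulfur protein Sdhb differed by 0.05, 0.08 and -0.04. In complex III 4 of 7 members lay lower. Uqcrc1, with Control values of 11.45, 11.36, 11.33 and 11.49 and CM-CKO values of 11.09, 11.31, 11.24 and 11.22, differed by -0.19 (-0.32 to -0.07, adjusted p = 0.197) without overlap. The hinge protein Uqcrh, the brightest member, differed by -0.09 and the Rieske iron-sulfur protein Uqcrfs1 by 0.32. The Uqcrfs1 probe was near background, with a mean of 4.52 in Control and of 4.82 (beadchip 2) and 4.86 (beadchip 3) in CM-CKO. In complex IV 10 of 14 lay lower, with a median of -0.06, and Cox5b, its brightest member, differed by -0.14 (-0.26 to -0.03, adjusted p = 0.310). Ndufa4, a subunit named for complex I and since placed in complex IV, differed by -0.01, and Cox7a2l, a factor of respiratory supercomplexes related to subunit 7a, by -0.04. In complex V 11 of 16 lay lower, with a median of -0.03, and Atp5d, a chain of the central stalk, had Control values of 11.25, 11.12, 11.12 and 11.17 and CM-CKO values of 10.81, 11.13, 10.90 and 10.95, a difference of -0.22 (-0.36 to -0.08, adjusted p = 0.168). Of 14 limma fits that each left out 1 array, Atp5d was called in 1, that without CM-CKO 2 (adjusted p = 0.0378). CM-CKO 2 is the array on which it overlapped Control, so this omission favours the difference. In the other fits Atp5d was not called, with an adjusted p of up to 0.383. Among the 7 measured assembly factors named Ndufaf, which help build complex I and are no part of it, 4 lay higher and 3 lower, from -0.21 (Ndufaf5) to 0.16 (Ndufaf1 and Ndufaf3). Ndufaf4, the brightest of them, differed by 0.07.

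Over all complexes 5 members had CM-CKO values wholly below Control (Cox5a, Cox5b, Ndufa12, Ndufc2 and Uqcrc1), where 2.88% of all genes did, and 1 wholly above (Ndufb4), where 2.56% did. These are 5.95% and 1.19% of the members. On beadchip 2 alone, where both genotypes were run, Ndufa12 differed by -0.33 and Ndufb4 by 0.35. CM-CKO 3 and 4 on beadchip 3 gave -0.25 and 0.41 against the same Control arrays.

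**Figure D2:**
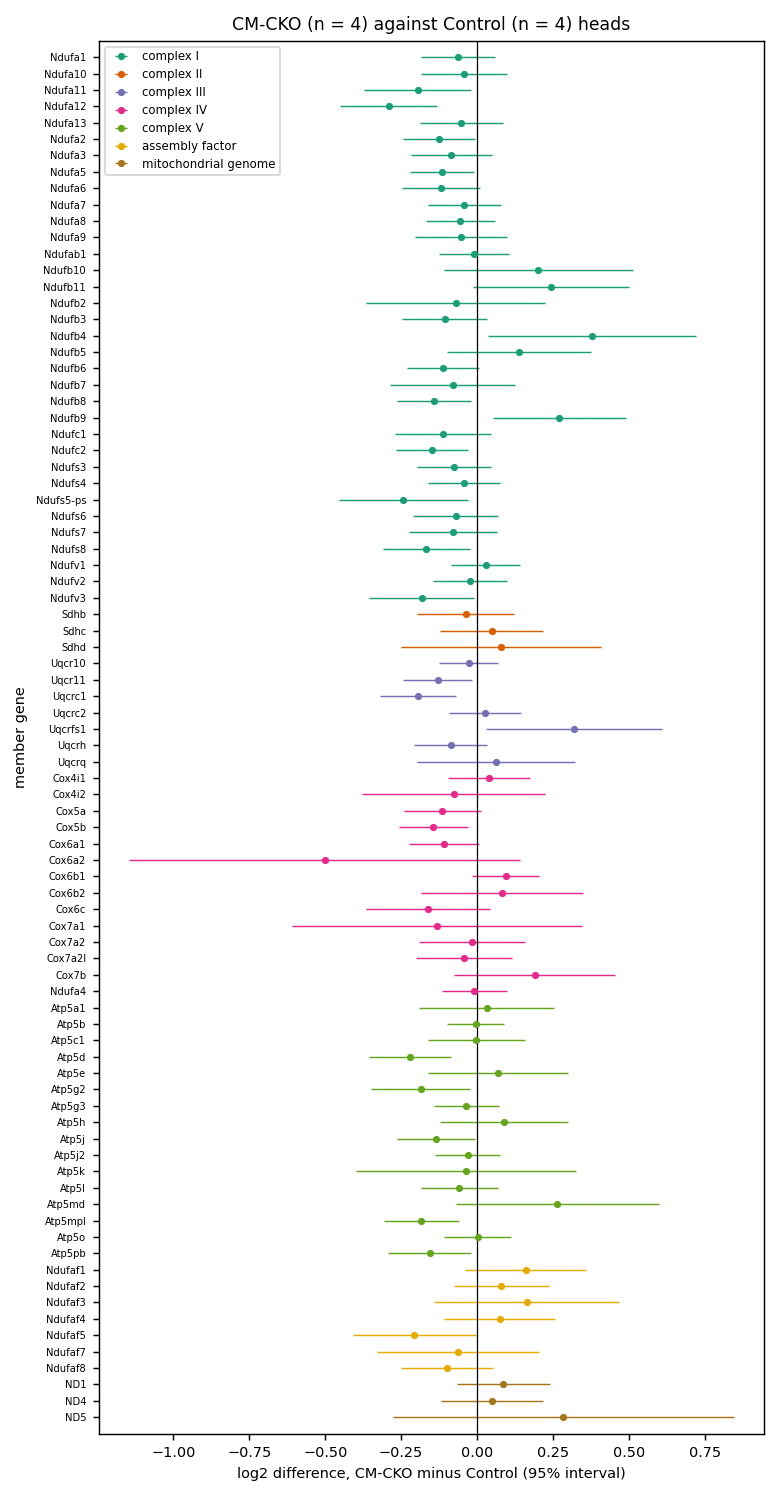
Log2 difference between CM-CKO and Control (points) with its 95% interval from limma (bars) for the 84 member genes, coloured by complex; the vertical line marks 0. Most complex I points lie left of 0, between -0.29 and 0.38, and the widest interval is that of Cox6a2.

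The 3 measured mitochondrial genome members lay higher in CM-CKO than in Control, by 0.05 (ND4), 0.09 (ND1) and 0.28 (ND5), none of them called. ND4 had one of the brightest member probes, at 13.03 to 13.51 over the 14 arrays, and ND1 ran from 12.52 to 12.94. ND1 lay higher in all 3 Het arrays (12.93, 12.73 and 12.94) than in Control (12.69, 12.54, 12.71 and 12.58), by 0.24 (0.07 to 0.41, adjusted p = 0.245). ND5 was dimmer and far more variable. Its log2 signals were 6.75, 7.19, 6.42 and 6.08 in Control, 7.81, 7.72 and 7.15 in CM-Het, 7.80, 7.81 and 7.47 in Het and 7.20, 7.56, 6.11 and 6.71 in CM-CKO. The 6 arrays of beadchip 1, CM-Het and Het, lay between 7.15 and 7.81 and the other 8 between 6.08 and 7.56, so the 2 ranges overlapped. CM-CKO split by beadchip, with its 2 arrays on beadchip 3 below its 2 on beadchip 2 by 0.97. CM-CKO exceeded Control by 0.77 within beadchip 2 and lay 0.20 below it with beadchip 3. The mitochondrial probes outside the rule, for ATP6, COX2, CYTB and ND4L, had SDs over the arrays of 0.21, 0.20, 0.12 and 0.39, below the 0.62 of ND5. Their means were 11.39, 11.42, 13.61 and 5.77 in Control and 11.54, 11.42, 13.57 and 6.11 in CM-CKO, so not all were higher in CM-CKO. In Het the means were 11.34, 11.59, 13.52 and 5.61, with only COX2 above Control. The probe of ND6, which is encoded on the opposite strand to the others, was above background on no array.

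CM-CKO was next set against the groups that carry 1 of its alleles. These comparisons lie across beadchips, so genotype and beadchip cannot be told apart in them. Against Het, which has the deleted allele everywhere and no Cre, no member was called where 25 of 11394 genes were (0.219%), and 13 members passed an unadjusted p under 0.05 (15.5%, against 7.99% of all genes). The nuclear members were evenly split, 42 higher and 39 lower, with a median of 0.00. The assembly factors named Ndufaf lay lower in 6 of 7, with a median of -0.16. Ndufaf8 led them, with CM-CKO values of 8.41, 8.49, 8.36 and 8.42, all below the Het values of 8.64, 8.66 and 8.76 (difference -0.26, adjusted p = 0.275). Of the 30 tested assembly factors outside the rule, 16 lay higher and 14 lower, with a median of 0.00. No overlap with Het was found for 4 members above it, where 4.13% of all genes had none, and for 6 below it, where 4.11% did.

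Against CM-Het, 1 member was called, Ndufa6, where 24 of 11394 genes were (0.211%). Ndufa6 is an accessory subunit of complex I. Its log2 signals were 11.43, 11.36, 11.19 and 11.38 in Control, 11.56, 11.59 and 11.72 in CM-Het, 11.35, 11.38 and 11.48 in Het and 11.16, 11.19, 11.25 and 11.28 in CM-CKO. Ndufa6 was lower in CM-CKO than in CM-Het by 0.40 log2 units, or 1.32-fold (difference -0.40, 95% interval -0.54 to -0.26, adjusted p = 0.0114), and every CM-CKO array lay below every CM-Het array. CM-Het held the high values of the 4 groups, and CM-CKO and Control overlapped (-0.12, -0.25 to 0.01). The call was lost without CM-Het 2 (adjusted p = 0.0535), CM-Het 3 (0.109) or CM-CKO 1 (0.05001), and without the 3 arrays that lack Xist signal (0.0720). Nuclear members as a whole lay lower in 51 of 81 in CM-CKO, with a median of -0.06 against 0.01 for all genes. That median was -0.010 without CM-CKO 1 and -0.04 without CM-CKO 3 or CM-Het 2. The assembly factors named Ndufaf lay lower in CM-CKO for 6 of 7, with a median of -0.08. No overlap was found for 12 members (14.3%) that lay wholly below CM-Het, where 5.09% of all genes did, and 3 wholly above, where 5.97% did, the latter being Cox7b, Ndufb4 and Ndufb9.

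The single alleles were examined against Control, again across beadchips. CM-Het against Control had 0 members called, where 47 of 11394 genes were (0.412%), with 20 members at an unadjusted p under 0.05 (23.8%, against 15.8% of all genes). Its nuclear members split into 37 higher and 44 lower, with a median of -0.01. There 6 members (7.14%) lay wholly above Control, where 6.91% of all genes did, and 11 (13.1%) wholly below, where 7.57% did. Het against Control had 0 members and 0 of all genes called (0%), with 22 members (26.2%) and 12.4% of all genes at an unadjusted p under 0.05. In Het 56 of 81 nuclear members lay lower, with a median of -0.06 (-0.04 without Het 1) against -0.01 for all genes. Wholly above Control lay 6 members (7.14%), where 5.61% of all genes did, and wholly below 12 (14.3%), where 5.7% did. The assembly factors named Ndufaf lay higher in Het for 5 of 7, with a median of 0.16. Of the 30 tested assembly factors outside the rule, 13 lay higher and 17 lower in Het, with a median of -0.02. In CM-Het, on the same beadchip, 5 of 7 Ndufaf factors also lay higher than Control, with a median of 0.12. The pattern was therefore not particular to the deleted allele. Ndufaf2 had Het values of 9.81, 9.86 and 10.08, all above the Control values of 9.72, 9.46, 9.63 and 9.70 (0.29, 0.12 to 0.46, adjusted p = 0.170), while its CM-CKO values ran from 9.68 to 9.74. Its CM-Het values also lay wholly above Control.

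CM-Het and Het share beadchip 1, so Cre and the deleted allele can be compared there within 1 beadchip. No gene was called (0% of 11394), and 11 members (13.1%) passed an unadjusted p under 0.05, against 3.96% of all genes. Complex I lay higher in CM-Het for 26 of 34 members, with a median of 0.05. No overlap was found for 12 members (14.3%) that lay wholly above Het, where 4.97% of all genes did, and none wholly below, where 5.39% did. Het 1 had a median deviation of -0.09, the second lowest of the 14 arrays, and the other Het arrays 0.00 and 0.02.

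The averages over the second factor use all 4 groups and cancel a shift between beadchips 1 and 2. A shift of beadchip 3, which carries CM-CKO 3 and CM-CKO 4, is not cancelled. The presence of Mesp1Cre, averaged over the second Twist1 allele, gave 0 members called, where 30 of 11394 genes were (0.263%), with 3 members (3.57%) at an unadjusted p under 0.05, against 7.24% of all genes. Its median over the nuclear members was 0.00, and the 95% interval lay within ±0.3 for 73 of 84 members. The deleted allele, averaged over Cre, gave 0 members called, where 10 of 11394 genes were (0.0878%), with 20 members (23.8%) at an unadjusted p under 0.05, against 7.24% of all genes. Of the nuclear members 58 of 81 lay lower with the deleted allele, with a median of -0.06 against 0.00 for all genes, complex I again with 27 of 34. Their per-array median deviation was lowest on CM-CKO 1 (-0.11) and Het 1 (-0.09), which carry that allele. On the other arrays with the allele it ran from -0.04 to 0.03, on Control from 0.02 to 0.05 and on CM-Het from 0.00 to 0.03. CM-CKO 1 and Het 1 also had the highest erythroid means, 8.38 and 6.68. The part of these arrays' makeup was not tested. The averages share their arrays with the comparisons above and are no separate evidence of a direction.

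The interaction of Cre and the deleted allele asks whether the effect of one depends on the other. It equals CM-CKO plus Control minus CM-Het minus Het, so it also sets beadchip 1 against beadchips 2 and 3, and the interaction and the beadchip cannot be told apart. Among the members 4 were called, where 114 of 11394 genes were (1%). Cox7b, a small subunit of complex IV, had log2 signals of 6.75, 6.74, 6.53 and 6.94 in Control, 6.52, 6.21 and 6.11 in CM-Het, 6.33, 6.14 and 6.53 in Het and 6.80, 6.93, 7.00 and 6.98 in CM-CKO. On beadchip 1 the values lay between 6.11 and 6.53, and on the other 8 arrays between 6.53 and 7.00. Its interaction was 1.05 (SE 0.19, adjusted p = 0.0187), with CM-CKO against Control at 0.19 (-0.08 to 0.46). Without CM-Het 3 or Het 2 the call was lost, with an adjusted p of up to 0.0622.

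Ndufb4, an accessory subunit of complex I, had log2 signals of 5.80, 6.07, 5.86 and 5.78 in Control, 5.57, 5.34 and 5.26 in CM-Het, 5.13, 5.78 and 6.00 in Het and 6.35, 6.11, 6.46 and 6.12 in CM-CKO. CM-CKO was the highest group with no overlap, and CM-Het and Het 1 the lowest. Its interaction was 1.11 (SE 0.25, adjusted p = 0.0421), a call that was kept without Het 3 and lost without any 1 of the other 13 arrays (adjusted p up to 0.109). Ndufa6 had an interaction of -0.46 (SE 0.09, adjusted p = 0.0292), lost without CM-Het 1, CM-Het 3, Het 2, Het 3, CM-CKO 1 or CM-CKO 2 (up to 0.0805). ND5 had an interaction of -1.75 (SE 0.41, adjusted p = 0.0496), kept without Control 2 or CM-CKO 2 and lost without any 1 of the other 12 arrays (up to 0.128). Without the 3 arrays that lack Xist signal none of the 4 was called, with interactions of 1.09 (Cox7b), 1.26 (Ndufb4), -0.47 (Ndufa6) and -1.38 (ND5). Of the 4, only Cox7b lies on chromosome X, where the members Ndufa1 and Ndufb11 lie too. The part of embryo sex in these values was not tested. Between CM-CKO arrays on beadchips 3 and 2, no gene was called (0% of 11394), with 2 members (2.38%) at an unadjusted p under 0.05.

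**Figure D3:**
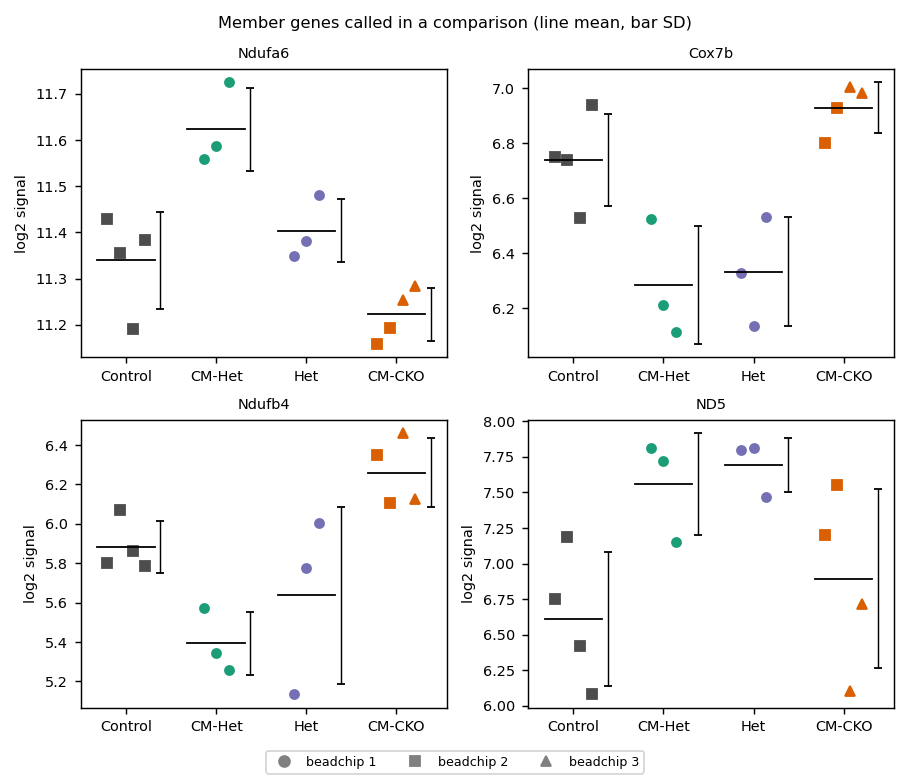
Log2 signal of the 4 members called in a comparison, by group, with 1 point per array (circle, beadchip 1; square, beadchip 2; triangle, beadchip 3), the group mean (line) and SD (bar to the right); the axes do not start at 0. On beadchip 1 Cox7b lies between 6.11 and 6.53, ND5 between 7.15 and 7.81 and Ndufb4 between 5.13 and 6.00, and Ndufa6 is highest in CM-Het.

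The muscle forms of complex IV were highest on the arrays with the highest heart marker signal, which lay in 3 of the genotypes. Cox6a2, the heart and skeletal muscle form of subunit 6a, was above background on 4 arrays, at 6.04 on Control 1, 5.84 on Control 3, 4.98 on CM-CKO 4 and 4.85 on CM-CKO 2. Its other 10 values lay between 4.26 and 4.63, at background. The heart muscle list had its 4 highest means on those same arrays, 9.63, 9.31, 8.89 and 8.46, followed by 8.19 on Het 3 and 6.58 to 7.21 on the other 9. Cox7a1, the muscle form of subunit 7a, was above background on all arrays and had its 5 highest values on the 5 arrays of highest heart signal, at 7.84 on CM-CKO 2, 7.80 on Control 1, 7.62 on Het 3, 7.53 on Control 3 and 7.45 on CM-CKO 4, with 6.64 to 7.38 on the others. Both genes were examined because they are muscle forms, and their levels are given with no test. The part of heart tissue in these values was not tested.

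The ubiquitous partner Cox6a1 ran from 12.09 to 12.35 over the arrays and Cox7a2 from 8.58 to 9.03. Cox4i1, the ubiquitous form of subunit 4, ran from 12.55 to 12.82, and Cox4i2, its other form, from 5.30 to 5.90. Cox6b1 ran from 12.43 to 12.77, and Cox6b2, known from testis, from 5.90 to 6.44. Cox8b, a muscle form, and Cox8c and Cox7b2, known from testis, were at background (Cox7b2 passed on 1 array). None of these pairs differed between CM-CKO and Control by a called amount, the interval for Cox6a2 being wide (-1.15 to 0.14) and that for Cox6a1 narrow (-0.23 to 0.01). Of the c ring genes of complex V, Atp5g3 differed by -0.04 and Atp5g2 by -0.19 (-0.35 to -0.02, adjusted p = 0.372). Ndufs1, Sdha and Ndufaf6, whose products are used in every tissue, also had no probe above background and were not tested.

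**Figure D4:**
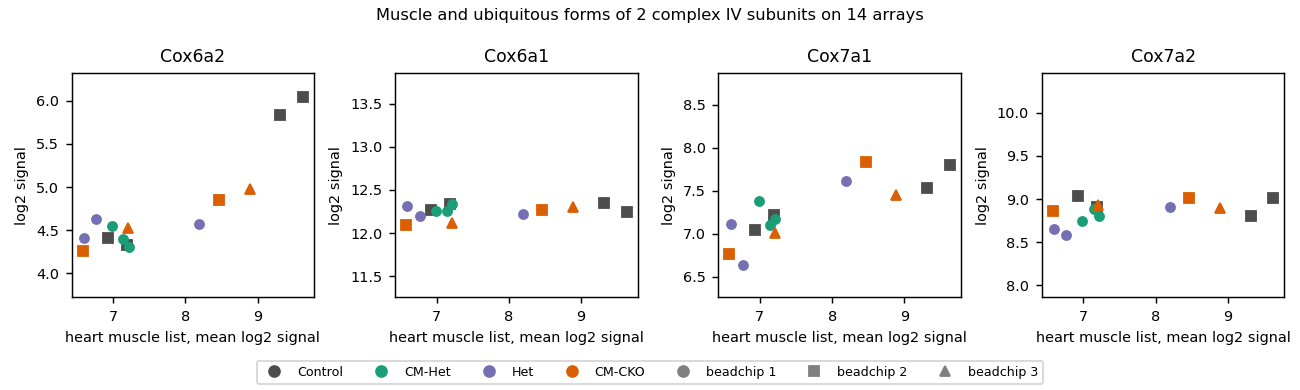
Log2 signal of the muscle forms Cox6a2 and Cox7a1 and their ubiquitous partners Cox6a1 and Cox7a2 (vertical axes, of equal span) against the mean log2 signal of 14 heart muscle genes (horizontal axis) on the 14 arrays, coloured by group and shaped by beadchip. Cox6a2 is above its background level on the 4 arrays at 8.46 to 9.63 on the heart list, Cox7a1 is highest on the 5 at 8.19 to 9.63, Cox6a1 lies between 12.09 and 12.35 and Cox7a2 between 8.58 and 9.03.

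Several members had more than 1 probe. In 26 genes, 34 further probes were above background, and 25 of these 34 had the sign of the brighter probe between CM-CKO and Control. Over the 14 arrays the correlation between 2 probes of a gene ran from -0.79 to 0.74, with a median of 0.24, as a description of probes that share their arrays. Probes of opposite sign were found in 3 genes, each at an unadjusted p under 0.05, in a comparison. Ndufb10, an accessory subunit of complex I, showed the widest gap. Its brighter probe read 8.06, 7.66, 8.44 and 8.15 in Control and 8.36, 8.80 and 8.78 in Het, a difference of 0.57, while the other read 7.62, 7.68, 6.99 and 8.16 in Control and 6.94, 4.65 and 4.94 in Het, a difference of -2.10 (adjusted p = 0.147 and 0.128). The second probe was also low on CM-CKO 3 (5.14). The direction for Ndufb10 is therefore uncertain. Ndufc2 was opposed between CM-CKO and CM-Het (-0.19 for the brighter probe and 0.45 for the other), and Ndufb8 in the interaction (0.23 and -0.48).

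**Figure D5:**
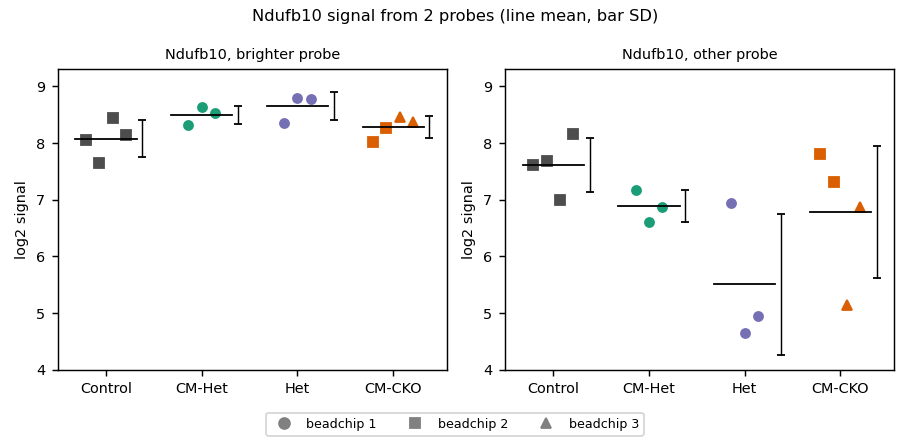
Log2 signal of the 2 detected Ndufb10 probes by group, with 1 point per array (shape, beadchip), the group mean (line) and SD (bar to the right); both panels share a scale that does not start at 0. The brighter probe is high in Het, where the other is at 4.65 and 4.94 on 2 of 3 arrays.

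Genes that work with the chain were examined as lists. Of 37 assembly factors outside the rule 30 were tested, of 19 genes of electron carriers and coenzyme Q 16, of 17 genes of pyruvate dehydrogenase and the tricarboxylic acid cycle 14, of 23 regulators of mitochondrial DNA and biogenesis 18, of 19 carriers and import genes 16, and of 76 mitochondrial ribosomal protein genes 73. None of these lists had a member called between CM-CKO and Control, where 80 of 11394 genes were (0.702%). At an unadjusted p under 0.05 were 5, 2, 2, 1, 0 and 11 (16.7%, 12.5%, 14.3%, 5.56%, 0% and 15.1%), against 11.2% of all genes. Their median differences were -0.05, -0.02, -0.01, -0.03, 0.00 and 0.00. The tissue lists below were chosen with earlier results of these data known, so their calls are a description. In the same comparison 9 of 13 head mesenchyme genes were called lower, with a list median of -1.28. Of 13 endothelial genes 11 lay lower, with a list median of -0.31 and 2 called (Cldn5 and Egfl7), and the list's mean log2 signal was 7.10 to 7.21 in CM-CKO and 7.34 to 7.59 in Control. Of 14 neural tube genes 11 lay higher, with a median of 0.14 and 1 called (Pax8). The part of these tissues in the members' values was not tested. Cycs, cytochrome c, the carrier between complexes III and IV, was called in the interaction (-0.47, limma adjusted p = 0.0496), where 114 of 11394 genes were (1%). Mrpl48, a protein of the large mitochondrial ribosomal subunit, was lower in CM-Het than in Control by 0.58 (difference -0.58, adjusted p = 0.0296). There 47 of 11394 genes were called (0.412%). Mrpl48 was also lower with Cre on average (-0.43, adjusted p = 0.00916), where 30 of 11394 genes were called (0.263%). The interaction and CM-Het against Control lie across beadchips, so genotype and beadchip cannot be told apart in them.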

How the data were processed

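Head RNA from 14 samples, purified with QIAGEN RNA micro columns per the labels' protocols, was measured on Illumina bead arrays. The authors deposited raw linear intensity values, not normalized, per the file headers. The detection p-value deposited with them, per the file headers, sits on other rows than its probe (rank correlation with intensity -0.105 to -0.0946), so p-values were reassigned to probes in order of intensity on each array. The reassigned sets of 45265 among 45281 probes each match 1 deposited row. A second deposited table holds log2 values, found by comparison to be quantile-normalized without background subtraction, and served as an alternative. The software is not given in the sources used here.

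Intensities were background corrected, quantile normalized and taken to log2 with neqc (offset 16) in limma 3.58.1 under R 4.3.3. A probe was kept if detected (p under 0.05) on at least 3 arrays, and the brightest such probe stood for its gene. The 4 group means were fitted on all 14 arrays by lmFit and eBayes with trend, and p-values were adjusted by Benjamini-Hochberg over 11394 genes. Called means an adjusted p under 0.05. Groups came from the genotype labels. Members, lists and tests were chosen with earlier results of these data known. Genes were named by rule: called members, mitochondrial members, the brightest member and the one of smallest p in each complex, tissue forms, the 5 widest and 5 narrowest spreads, and genes with opposed probes. The number of arrays limits the precision. Replicate numbers did not pair the samples (4 of 19 correlations over 0.1). Promoter windows were searched for motifs, and the NRF1 motif was shortened after a first search with its longer form.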

Additional observations from a re-analysis of the deposited data

Results flagged for a closer look

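The interaction of Mesp1Cre and the deleted Twist1 allele was called by limma for 4 member genes. The difference of differences was 1.05 for Cox7b (adjusted p = 0.0187), -0.46 for Ndufa6 (adjusted p = 0.0292), 1.11 for Ndufb4 (adjusted p = 0.0421) and -1.75 for ND5 (adjusted p = 0.0496). The CM-Het and Het arrays share beadchip 1, so this contrast and the beadchip cannot be told apart. Of 14 fits that each left out 1 array, 12 kept the call for Cox7b, 8 for Ndufa6, 1 for Ndufb4 and 2 for ND5. Without the 3 arrays that lack Xist signal none of them was called. Single arrays that stand far from the rest of their group were looked for in 86 sets of 4 values, of which chance picks about 1 in 20, and 0 were found.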

How the results depend on the processing

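Between CM-CKO and Control, the count of called members stayed at 0 under each alternative that kept all 14 arrays except the replicate block, where it was 1. With that block the count was also 1 for the deleted allele averaged and 1 for the interaction. The replicate numbers do not pair the samples, since correlations between same-numbered arrays ran from -0.24 to 0.25 over 19 pairs. For CM-CKO against CM-Het the count of 1 became 2 with the deposited log2 values, 2 with probes detected on all 14 arrays, 3 with beadchip as a random block (estimated correlation -0.06), and 0 with median-centred arrays, without the eBayes trend or without the 3 arrays that lack Xist signal. For the interaction the count of 4 became 2 with median-centred arrays, 2 with no filter on dim probes, 2 with the deposited order of detection p-values, 2 without the trend, 12 with the random block and 0 without the 3 arrays that lack Xist signal, a choice made after seeing the data. The random block gave 3 for CM-Het against Control, and median-centred arrays gave 1 for Het against Control.

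Replacing quantile normalization by median centring moved the median of the nuclear members together with that of all genes: to -0.0093 (all genes 0.05) for CM-CKO against Control, -0.18 (-0.13) against Het, -0.21 (-0.12) against CM-Het, 0.18 (0.16) for CM-Het against Control, 0.16 (0.18) for Het against Control, -0.37 (-0.29) for the interaction and 0.37 (0.31) between beadchips 3 and 2 within CM-CKO. Leaving out 1 array at a time gave 0 to 1 members called for CM-CKO against Control, 0 to 2 against CM-Het, 0 to 0 against Het, 0 to 1 for the deleted allele, 0 to 3 for the interaction and 0 to 0 elsewhere. The medians then ran from -0.07 to -0.02 for CM-CKO against Control, -0.01 to 0.03 against Het, -0.082 to -0.010 against CM-Het, -0.03 to 0.00 for CM-Het against Control, -0.08 to -0.04 for Het against Control, 0.00 to 0.06 for CM-Het against Het, -0.01 to 0.01 for Cre, -0.07 to -0.04 for the deleted allele, -0.01 to 0.04 for the interaction and -0.033 to 0.11 between beadchips. The causes were not tested.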
